A study of Mus musculus with 29 samples.

Results

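Cdh4, Itga4, Shc2, Dusp26, Ppp1r1a, Actr3b, Mss51, Tdrp and Lrp2bp are 9 genes that differed strongly between fed mice lacking p110α in skeletal muscle (M-p110αKO) and their fed controls. They are 9 of the 48023 genes counted in tibialis anterior (TA) muscle, and all 9 passed the filter on low counts in both mouse lines studied. They were chosen by the size of that fed difference in edgeR, so their fed values in this line are given as a description, without a test. The questions addressed here are whether the difference was also present in fasted M-p110αKO, whether the genes responded to fasting itself, and what they did in mice lacking p110β (M-p110βKO).

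RNA from TA muscle of male mice aged 2 to 3 months, with the strain given as C57BL/6J, was sequenced in 29 libraries. The p110α line gave 4 controls and 4 M-p110αKO when fed, and 4 controls and 3 M-p110αKO when fasted. The p110β line gave 3 controls and 4 M-p110βKO when fed, and again 3 controls and 4 M-p110βKO when fasted. Knockouts carried HSA-Cre, a Cre under the control of a human promoter of skeletal alpha-actin. They also carried floxed exon 1 of p110α or floxed exon 2 of p110β. Controls are labelled WT for the same locus, but the study's supplement refers to the control mice as p110α-floxed or p110β-floxed. Fasted mice had been without food for a day. HSA-Cre acts in muscle fibers, so the other cells of the muscle keep their p110 alleles. A genome scan described in the study's supplement found more non-C57BL/6 genome in mice of the p110β line, so genetic background cannot be told apart from line. The labels do not say beyond the sample numbers that the libraries of a group come from separate animals, and the p-values measure the spread between these libraries.

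p110α and p110β are alternative catalytic subunits of phosphatidylinositol 3-kinase (PI3K), the enzyme that insulin and growth factor receptors use to make a lipid messenger at the plasma membrane. The messenger activates AKT, which in muscle stimulates glucose uptake and protein synthesis and keeps FoxO transcription factors out of the nucleus. In fasting, insulin falls and this pathway is less active. The 9 genes do not form a known pathway. Cdh4 and Itga4 encode surface proteins of cell adhesion, Shc2, Dusp26 and Ppp1r1a encode regulators of protein phosphorylation, Actr3b encodes an actin-related protein and Mss51 a mitochondrial protein of muscle.

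Libraries held 5351935 to 11653239 assigned reads, with a median of 7828636, and mitochondrially encoded genes took 6.99% to 12.3% of them. The muscle fiber markers Ckm, Acta1, Ttn, Des, Mb and Neb summed to 36005–54817 CPM (counts scaled to a common library total), and 9 markers of fast fibers, the main fiber type of TA, to 120509–174483 CPM, and none of these markers was at 0 in all libraries of a group. Pik3ca, which encodes p110α, gave 127 ± 19.7 CPM (SD, n = 4) in fed controls of its line and 136 ± 23.4 (n = 4) in fed M-p110αKO. Pik3cb gave 10.3 ± 0.364 CPM (n = 3) in fed controls of the p110β line and 10.3 ± 0.996 (n = 4) in fed M-p110βKO. Reads were summed over all exons while Cre removes a single exon, so these sums do not check the genotype labels. Libraries are called here by the running numbers 1 to 29 of their labels. Fasted controls 23 and 24 of the p110β line stood apart, with 385 and 421 CPM summed over 6 adipocyte markers against 171 CPM in the remaining control of the group and 90.0–207 CPM over all other libraries. The contrasts of the 9 genes that rest on this group are therefore also given without libraries 23 and 24, which leaves 1 fasted control in that line, taken to vary like the other groups. That control, library 25, was itself unusual, with 311 CPM summed over slow fiber markers against 92.6–201 CPM in all other libraries.

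On GRCm38, Cdh4 lies at chr2:179442431-179899373 and Itga4 at chr2:79255426-79333123, both on the plus strand. Shc2 is at chr10:79618051-79637918, Ppp1r1a at chr15:103530279-103538003 and Mss51 at chr14:20482867-20496901, all on the minus strand. Dusp26 (chr8:31089471-31097047) and Lrp2bp (chr8:45999303-46029477) on the plus strand and Tdrp (chr8:13952008-13975032) on the minus strand share chromosome 8, and Actr3b is at chr5:25759997-25850688 on the plus strand. All 9 are protein-coding and the counts cover their exons. Genes on the opposite strand overlap Itga4 (Cerkl, 0–4 counts per library), Lrp2bp (Ankrd37, 1–17 counts) and Cdh4 (the pseudogene Gm14300, 0 counts), and whether counting used strand is not stated. In the RefSeq promoter table for GRCm38.p6, 4 of the 9 genes were found (Shc2, Itga4, Mss51 and Lrp2bp). The 250 bases before the start are shown for the 3 of them that also fell in fasted M-p110αKO. Letters in capitals are matches, on either strand, to searched motifs named after the sequences.
Shc2, chr10:79637919-79638168, minus strand: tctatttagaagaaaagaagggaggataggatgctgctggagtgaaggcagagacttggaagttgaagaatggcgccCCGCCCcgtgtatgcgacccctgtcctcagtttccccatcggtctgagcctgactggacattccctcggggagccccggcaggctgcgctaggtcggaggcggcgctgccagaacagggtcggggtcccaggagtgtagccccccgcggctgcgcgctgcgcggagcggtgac
Itga4, chr2:79255176-79255425, plus strand: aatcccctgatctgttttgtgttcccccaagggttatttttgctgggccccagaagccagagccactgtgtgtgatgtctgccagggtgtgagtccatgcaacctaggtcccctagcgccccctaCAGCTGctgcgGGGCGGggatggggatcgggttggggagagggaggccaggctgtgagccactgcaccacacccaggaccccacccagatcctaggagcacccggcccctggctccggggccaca
Mss51, chr14:20496902-20497151, minus strand: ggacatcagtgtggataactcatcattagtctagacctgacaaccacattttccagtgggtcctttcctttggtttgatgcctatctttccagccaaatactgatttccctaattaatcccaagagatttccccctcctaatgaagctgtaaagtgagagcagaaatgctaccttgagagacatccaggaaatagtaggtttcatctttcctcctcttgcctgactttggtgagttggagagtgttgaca
The windows had little in common. Shc2 held a GC box on the strand opposite to the one shown, starting 173 bases before the start, in a window with 64.0% GC. Itga4, also at 64.0% GC, held an E-box from 125 and a GC box from 114 bases before the start, and the matches do not overlap. Mss51 held no match to any of the 4 motifs, at 43.2% GC against a median of 52.4% over 32851 promoters. Of those promoters, 3.17% held the FoxO motif GTAAACA on either strand. The E-box searched was CAGCTG, which 13.0% of promoters held. The TATA box searched was TATAAA, found in 12.4%. The GC box searched was GGGCGG, found in 32.7%. In the windows shown no match overlaps another. A match describes the letters and not a bound site.

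The fed values that chose the genes were as follows. Fed M-p110αKO had less Cdh4, Mss51, Shc2, Actr3b, Lrp2bp, Tdrp and Itga4 than fed controls, with log2 differences of −2.90 ± 0.39 (SE) for Cdh4, −2.30 ± 0.41 for Mss51, −2.07 ± 0.30 for Shc2, −1.48 ± 0.31 for Actr3b, −1.42 ± 0.26 for Lrp2bp, −1.36 ± 0.20 for Tdrp and −1.20 ± 0.18 for Itga4. Dusp26 (1.09 ± 0.16) and Ppp1r1a (1.03 ± 0.16) were higher. In mean CPM, Cdh4 was at 0.133 of its control level and Dusp26 at 2.14 times its control level. All 9 are among the 76 genes (0.611% of 12433) with an adjusted p under 0.05 in this contrast, of which 24 are higher (0.193% of genes) and 52 lower (0.418%). The libraries of the groups overlapped for none of the 9, and groups without overlap were found for 6.64% of genes. Both counts follow from the choice. By size of log2 difference they rank 3rd (Cdh4) to 33rd (Ppp1r1a) of the 76, so they are large but not the largest changes. Per kilobase of exon in fed controls, the genes span from Actr3b (25.3 ± 3.95 CPM per kb, SD, n = 4) and Dusp26 (23.0 ± 4.78), through Mss51 (12.9 ± 4.43), Ppp1r1a (12.6 ± 2.77) and Cdh4 (4.34 ± 0.90), to Itga4 (2.45 ± 0.497), Lrp2bp (2.18 ± 0.59), Tdrp (1.48 ± 0.35) and Shc2 (1.06 ± 0.178). Levels within the pairs Actr3b and Dusp26, Mss51 and Ppp1r1a, and Itga4 and Lrp2bp differed by less than their SDs.

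The difference was largely present again in fasted mice. The rule of choice used the fed contrast, but the genes were chosen with earlier results of these data known. The repeat is therefore not shown to be independent of the choice. In fasted M-p110αKO, 7 of the 9 genes passed an adjusted p of 0.05 against fasted controls, where 6.52% of all genes tested did. Dusp26 and Ppp1r1a rose (3.02% of genes did), and Actr3b, Tdrp, Itga4, Mss51 and Shc2 fell (3.51% of genes did). Cdh4 and Lrp2bp did not pass, although all 9 differences had the same sign as in fed mice. DESeq2 called 8 of the 9 (1102 of all 12433 genes) and limma-voom 6 (774 of all genes). The groups did not overlap for 5 of the 9 genes (20.8% of all genes). Bulk RNA cannot tell apart fewer cells that express a gene from less RNA per cell. Correcting for the GC content and the exon length of genes left 5 of the 7 calls and reduced the calls over all genes from 811 to 345.

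In fed M-p110βKO, 0 of the 9 genes passed in edgeR (0.0% of genes did), in DESeq2 or in limma-voom. At an unadjusted p under 0.05, where 517 of 12249 genes were higher and 543 lower, 1 was higher (Dusp26) and 4 were lower (Lrp2bp, Itga4, Mss51 and Actr3b), and 8 of the 9 differences had the sign seen in fed M-p110αKO. In fasted M-p110βKO, 1 of the 9 passed (Mss51, lower, where 0.89% of genes passed and 0.596% as lower), with 2 lower and 0 higher at an unadjusted p under 0.05 (865 of 12249 genes were lower and 754 higher). Its groups were apart only for Tdrp (10.2% of genes were), also a share near that of all genes. A direct test of the fasted knockout effect between the lines passed for 2 genes (4.88% of genes), with Dusp26 higher in the p110α line (2.19% of genes) and Actr3b lower (2.69%). The same test was not made for fed mice, because the fed p110α libraries chose the genes.

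Fasting itself moved most of the genes in the p110β line. The rule of choice did not use the p110β line. In its controls 6 of the 9 genes passed (26.9% of genes): Cdh4, Itga4 and Lrp2bp fell (12.4% of genes did), and Dusp26, Ppp1r1a and Tdrp rose (14.5%). The calls of Ppp1r1a and Tdrp were lost when any of libraries 16, 17, 18, 23 and 24 was left out. The libraries of fed and fasted controls were apart for 6 of the 9 (41.5% of genes). In M-p110βKO 5 of the 9 passed (37.9% of genes), with Cdh4, Itga4 and Lrp2bp falling (18.9%) and Dusp26 and Ppp1r1a rising (19.0%), and 3 of the 9 were apart (34.1% of genes), a share near that of all genes. The comparison within M-p110βKO shares no library with that in controls. In the p110α line, where the fed libraries chose the genes and no test is given, Cdh4, Itga4 and Lrp2bp were also lower in fasted than in fed controls. Dusp26 differed there by 0.42 ± 0.16, Ppp1r1a by −0.15 ± 0.16 and Tdrp by 0.15 ± 0.18.

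Without libraries 23 and 24, the adjusted p of the 9 genes between fasted M-p110βKO and the remaining control ranged from 0.648 to 0.999 (29 genes passed over the whole table). The differences then were 0.43 ± 0.62 for Cdh4, −0.03 ± 0.46 for Itga4, −0.16 ± 0.41 for Shc2, −0.08 ± 0.17 for Dusp26, 0.76 ± 0.34 for Ppp1r1a, 0.25 ± 0.27 for Actr3b, 0.00 ± 0.65 for Mss51, −0.18 ± 0.25 for Tdrp and 0.22 ± 0.45 for Lrp2bp. Cdh4 and Lrp2bp thus changed sign. All values without libraries 23 and 24 rest on library 25 as the only fasted control, the library highest in slow fiber markers. The fall on fasting in controls kept its call for Cdh4 (−2.58 ± 0.57, adjusted p = 0.00542), Itga4 (−1.82 ± 0.44, adjusted p = 0.0092) and Lrp2bp (−2.12 ± 0.42, adjusted p = 0.00212), as did the rise of Dusp26 (0.69 ± 0.17, adjusted p = 0.0117). Shc2 (−0.55 ± 0.41) and Actr3b (−0.35 ± 0.28) again did not pass. The line differences in the fasted knockout effect were −2.20 ± 0.97 for Cdh4, −1.01 ± 0.53 for Itga4, −1.06 ± 0.57 for Shc2, 0.25 ± 0.38 for Ppp1r1a, −0.82 ± 0.33 for Tdrp and −0.79 ± 0.58 for Lrp2bp, with adjusted p from 0.314 to 0.838.

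**Figure D1:**
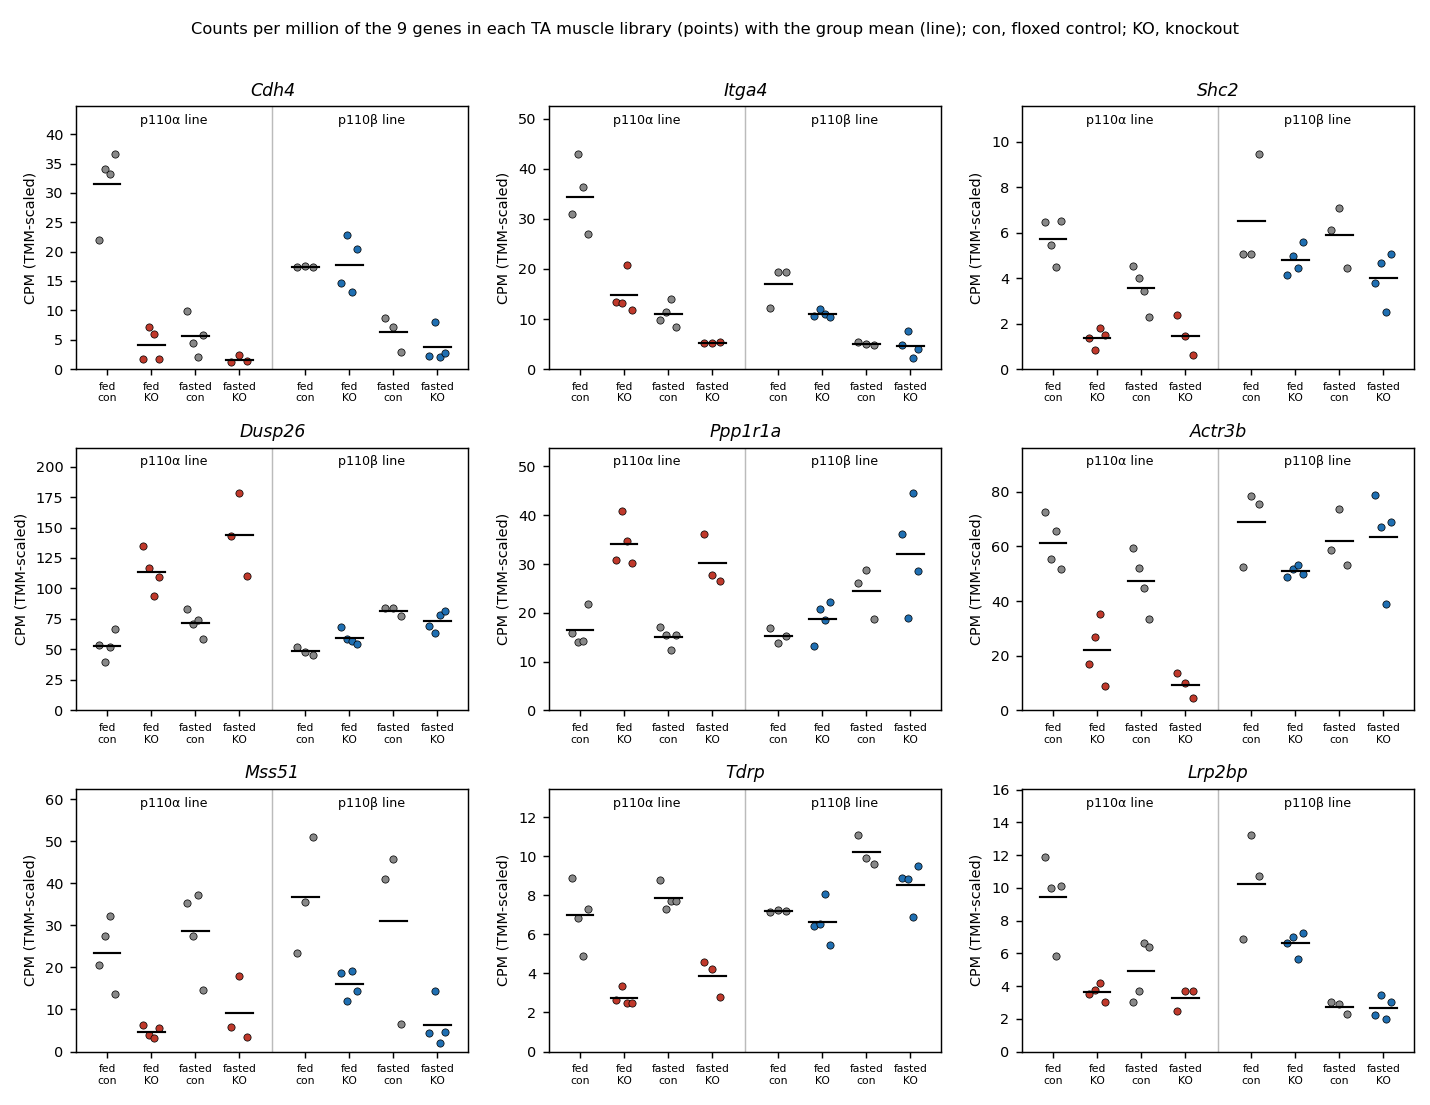
CPM of each of the 9 genes (vertical axis, from 0, scaled with TMM factors over all 29 libraries) in each TA muscle library (points) by group, with the group mean as a line: p110α line on the left of each panel, p110β line on the right, controls in grey and knockouts in color. Fasted M-p110αKO libraries of Dusp26 sit at 110–178 CPM, above all other fasted libraries (58.2–84.3), and those of Actr3b at 4.46–13.5 CPM, below all other fasted libraries (33.3–78.8).

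Cdh4 encodes R-cadherin, a calcium-dependent adhesion protein. In the p110α line its level was 21.9, 34.1, 33.3 and 36.6 CPM in fed controls, against 1.76, 7.19, 5.96 and 1.78 CPM in fed M-p110αKO. Every fed knockout library was thus far below every fed control. In fasted controls it was 9.83, 4.46, 2.13 and 5.82 CPM, and in fasted M-p110αKO 1.12, 2.37 and 1.38 CPM. Fasted controls overlapped the fed knockouts, but the fed values chose the gene and this comparison was not tested. The lowest fasted control lay within the range of the fasted knockouts. The fasted difference was −1.78 ± 0.56 (95% CI −2.96 to −0.60, adjusted p = 0.0647 in edgeR), on 9 to 18 counts per knockout library. It passed in DESeq2 (adjusted p = 0.0408), with the fasted groups alone (0.0497), with all 29 libraries in the fit (0.0479), with no filter (2.98e-09) and without library 11 (−2.03, adjusted p = 0.039).

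In the p110β line Cdh4 was at 17.3–17.6 CPM in fed controls and 13.1–22.9 CPM in fed M-p110βKO, a difference of 0.04 ± 0.31 (95% CI −0.61 to 0.70). Fasting lowered Cdh4 in controls of this line to 8.74, 7.24 and 2.87 CPM (−1.44 ± 0.37, adjusted p = 0.007) and in M-p110βKO to 2.22, 7.99, 2.11 and 2.68 CPM (−2.20 ± 0.34, adjusted p = 7.31e-05). In neither genotype did fed and fasted libraries overlap. Fasted M-p110βKO differed from fasted controls by −0.72 ± 0.40 (adjusted p = 0.457, 95% CI −1.55 to 0.12), with library 27 left out by −1.44 (adjusted p = 0.0362), and without libraries 23 and 24 by 0.43 ± 0.62 (adjusted p = 0.916), with the direction turned. In the p110α line the fasted minus fed difference was −2.48 ± 0.38 in controls and −1.36 ± 0.58 in M-p110αKO.

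Itga4 encodes the integrin α4 subunit, which pairs with integrin β1 or β7 to bind fibronectin and VCAM1, in leukocytes and in developing muscle among other cells. It fell in fasted M-p110αKO from 9.83, 11.4, 14.1 and 8.48 CPM in controls to 5.21, 5.13 and 5.38 CPM (−1.05 ± 0.24, adjusted p = 0.016). The fasted knockout libraries were closely alike and all below the controls. In fed mice of this line the controls had 30.9, 43.0, 36.4 and 27.0 CPM and the knockouts 13.5, 13.3, 20.8 and 11.9 CPM. Fed knockouts (11.9–20.8 CPM) overlapped fasted controls (8.48–14.1 CPM), but the fed values chose the gene and this comparison was not tested. Without library 14 the fasted difference was −1.04 with an adjusted p of 0.0706, and with the GC and length correction −0.81 with 0.0925.

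In the p110β line Itga4 was at 12.3–19.4 CPM in fed controls and 10.5–12.1 CPM in fed M-p110βKO (−0.60 ± 0.24, adjusted p = 0.47, 95% CI −1.10 to −0.11). These fed groups did not overlap, as was so for 3 of the 9 genes (9.8% of all genes). Fasting lowered Itga4 to 5.49, 4.95 and 4.74 CPM in controls (−1.73 ± 0.28, adjusted p = 0.000159) and to 2.11–7.62 CPM in M-p110βKO (−1.25 ± 0.25, adjusted p = 0.000771). Fasted M-p110βKO differed from fasted controls by −0.13 ± 0.29 (95% CI −0.74 to 0.49), and the knockout effect differed between the lines by −0.93 ± 0.40 (adjusted p = 0.163, and 0.049 without library 28). The fasted minus fed difference in the p110α line was −1.66 ± 0.19 in controls and −1.50 ± 0.23 in M-p110αKO, so the gene was lower after fasting in every group of mice. Of the leukocyte markers, 9 lymphocyte markers summed to at most 1.73 CPM in any library. Macrophage markers summed to 31.4–61.6 CPM in fasted controls and 22.0–81.5 CPM in fasted M-p110αKO. Their part in the Itga4 difference was not tested.

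Among 15 other integrin genes tested in fasted M-p110αKO, 1 rose (3.02% of all genes did) and 1 fell (3.51%). Itgb1, the usual partner of Itga4, fell by 0.46 ± 0.10 on the log2 scale (adjusted p = 0.0141), and Itgal, an integrin subunit of leukocytes, rose by 1.88 ± 0.55 (adjusted p = 0.0487) with overlapping groups. Both lost their call with the GC and length correction (adjusted p = 0.0607 and 0.0953), Itgb1 also without library 14 and Itgal without library 9, 10, 12, 13, 14 or 15. Of 10 other cadherins and catenins, 0 passed in edgeR, with 1 at an unadjusted p under 0.05, 1 in DESeq2 and 0 in limma-voom. The median log2 difference was −0.06 for the integrins and 0.03 for the cadherins and catenins, against 0.003 over all genes.

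Shc2 encodes an adaptor of the Shc family, which links phosphorylated receptor tyrosine kinases to Grb2 and Ras. In the p110α line it was at 6.48, 5.45, 4.48 and 6.5 CPM in fed controls, against 1.38, 0.84, 1.80 and 1.51 CPM in fed M-p110αKO. In fasted controls it was at 4.55, 3.99, 3.45 and 2.27 CPM and in fasted M-p110αKO at 2.36, 1.45 and 0.615 CPM. The fasted groups met, since the highest knockout lay just above the lowest control. Shc2 fell in fasted M-p110αKO by 1.22 ± 0.35 on the log2 scale (adjusted p = 0.0457), on 4 to 19 counts per knockout library. The call was lost with upper-quartile factors, in limma-voom, with the fasted groups fitted alone, and when library 9, 10, 11, 14 or 15 was left out (adjusted p = 0.0757–0.153).

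In the p110β line Shc2 was at 5.06–9.48 CPM in fed controls and 4.14–5.58 CPM in fed M-p110βKO (−0.45 ± 0.26, 95% CI −1.0 to 0.09). When fasted it was at 4.45–7.11 CPM in controls and 2.51–5.05 CPM in M-p110βKO (−0.57 ± 0.27, adjusted p = 0.37). No fasting response passed in either genotype of this line (−0.15 ± 0.27 and −0.26 ± 0.26). In the p110α line, where no test is given, the fasted minus fed difference was −0.71 ± 0.27 in controls and 0.14 ± 0.39 in M-p110αKO. Of 17 other Shc and receptor adaptor genes, 0 rose in fasted M-p110αKO (3.02% of all genes did) and 3 fell (3.51%). Grb14, an inhibitor of the insulin receptor, fell by 1.15 ± 0.22 (adjusted p = 0.00768), the Ras exchange factor Sos2 by 0.52 ± 0.10 (adjusted p = 0.00865) and the scaffold Gab2 by 0.55 ± 0.15 (adjusted p = 0.034). The Gab2 call was lost with the fasted groups alone (adjusted p = 0.0662) and without any of libraries 9 to 14 (up to 0.174), and the Sos2 call without library 14 (0.0537). In fasted M-p110βKO Grb14 differed from controls by −0.02 ± 0.18, Sos2 by 0.18 ± 0.14 and Gab2 by −0.24 ± 0.16.

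Dusp26 encodes a dual-specificity phosphatase known to act on MAP kinases. It rose in fasted M-p110αKO to 143, 178 and 110 CPM from 82.8, 70.8, 74.5 and 58.2 CPM in fasted controls (1.01 ± 0.17, adjusted p = 0.00353). In fed mice of this line it was at 53.7, 39.5, 52.2 and 66.5 CPM in controls and 135, 117, 93.8 and 109 CPM in knockouts. The groups did not overlap in either state, and the log2 difference was about the same in both. In the p110β line fed controls had 52.1, 48.1 and 45.3 CPM and fed M-p110βKO 68.1, 58.8, 56.5 and 54.5 CPM (0.30 ± 0.11, adjusted p = 0.438, 95% CI 0.06 to 0.54). All 4 fed knockouts were above the controls. Fasted controls had 84.3, 83.8 and 77.3 CPM and fasted M-p110βKO 69.1, 63.8, 77.9 and 81.1 CPM (−0.17 ± 0.11, 95% CI −0.40 to 0.06).

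The fasted knockout effect on Dusp26 differed between the lines by 1.17 ± 0.22 (adjusted p = 0.00331, 0.00084–0.0152 with each of the 14 fasted libraries left out). Without libraries 23 and 24 it was 1.10 ± 0.28 (adjusted p = 0.0878). Fasting raised Dusp26 in controls of the p110β line (0.76 ± 0.12, adjusted p = 0.00014) and in M-p110βKO (0.29 ± 0.10, adjusted p = 0.0327, lost without library 20, 21, 22, 28 or 29). It differed between fasted and fed mice of the p110α line by 0.42 ± 0.16 in controls and 0.34 ± 0.17 in M-p110αKO. Of 21 other dual-specificity phosphatase genes, 2 rose in fasted M-p110αKO (3.02% of all genes did). They were Dusp4 (1.07 ± 0.28, adjusted p = 0.0289), another MAP kinase phosphatase, and Dusp27 (0.58 ± 0.15, adjusted p = 0.032). Both calls were lost with the GC and length correction, that of Dusp4 also without library 9, 10, 11, 12, 13 or 15 and that of Dusp27 without library 9, 11, 12 or 15. Dusp4 also rose on fasting in p110β controls (1.89 ± 0.37, adjusted p = 0.00105).

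Ppp1r1a encodes inhibitor-1, which blocks protein phosphatase 1 once protein kinase A has phosphorylated it. In fasted M-p110αKO it rose to 36.2, 27.8 and 26.6 CPM from 17.1, 15.4, 12.4 and 15.4 CPM in fasted controls (1.01 ± 0.17, adjusted p = 0.00291). Fed controls of the line had 15.9, 14.1, 14.2 and 21.8 CPM and fed M-p110αKO 30.8, 40.9, 34.7 and 30.2 CPM. Groups were apart in both feeding states, and fasting left the level about where it was in this line (−0.15 ± 0.16 in controls, −0.17 ± 0.16 in knockouts). Ppp1r1a rose on fasting in the p110β line from 16.8, 13.7 and 15.2 CPM to 26.1, 28.8 and 18.8 CPM in controls (0.70 ± 0.25, adjusted p = 0.0465) and from 13.2–22.2 to 18.9–44.6 CPM in M-p110βKO (0.78 ± 0.21, adjusted p = 0.00789). The call in controls was lost when any of libraries 16, 17, 18, 23 and 24 was left out, and without 23 and 24 together the rise was 0.31 ± 0.35 (adjusted p = 0.588).

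Ppp1r1a was also higher in fasted controls of the p110β line than in those of the p110α line (0.71 ± 0.21, adjusted p = 0.0138). In this comparison 3 of the 9 genes passed (30.3% of genes, with 14.7% higher and 15.5% lower), the others being Itga4 (−1.10 ± 0.27, adjusted p = 0.00263) and Lrp2bp (−0.83 ± 0.29, adjusted p = 0.0304), both lower in the p110β line. The share of the 9 genes that passed is close to that of all genes. None of the 3 passed with the GC and length correction (adjusted p = 0.464, 0.08 and 0.238) or without libraries 23 and 24 (adjusted p = 0.554, 0.0959 and 0.176). M-p110βKO differed from controls in Ppp1r1a by 0.30 ± 0.24 when fed (95% CI −0.21 to 0.80) and 0.38 ± 0.23 when fasted (95% CI −0.10 to 0.85). Of 24 other genes of protein phosphatase 1 and its regulators, 0 rose in fasted M-p110αKO (3.02% of all genes did) and 1 fell (3.51%). The gene that fell was the myosin phosphatase subunit Ppp1r12a (−0.47 ± 0.14, adjusted p = 0.0486). The Ppp1r12a call was lost without library 9, 10, 12, 13, 14 or 15 (adjusted p up to 0.18) and with the GC and length correction (−0.23, adjusted p = 0.334).

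Actr3b encodes a relative of the Arp3 subunit of the complex that starts branched actin filaments. Its fall in fasted M-p110αKO was the largest of the 9, from 59.5, 52.1, 44.9 and 33.3 CPM in fasted controls to 13.5, 10.0 and 4.46 CPM (−2.32 ± 0.38, adjusted p = 0.00246). In fed mice it was at 72.5, 55.3, 65.8 and 51.6 CPM in controls and 17.0, 27.0, 35.2 and 8.81 CPM in knockouts. The groups were apart in both states. In the p110β line fed controls had 52.5, 78.5 and 75.6 CPM and fed M-p110βKO 48.9, 51.6, 53.2 and 49.8 CPM (−0.42 ± 0.18, adjusted p = 0.516, 95% CI −0.81 to −0.04). Fasted controls had 58.7, 73.8 and 53.3 CPM and fasted M-p110βKO 78.8, 67.3, 39.1 and 68.9 CPM (0.03 ± 0.18, 95% CI −0.35 to 0.42). Both β intervals end well short of the difference in fasted M-p110αKO.

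The fasted knockout effect on Actr3b differed between the lines by −2.36 ± 0.44 (adjusted p = 0.00381, 0.0018–0.0138 with each of the 14 fasted libraries left out). Without libraries 23 and 24 it was −2.56 ± 0.59 (adjusted p = 0.0599). No fasting response of Actr3b passed in the p110β line (−0.14 ± 0.20 in controls, 0.32 ± 0.17 in knockouts), though in M-p110βKO it passed without library 28 (0.51, adjusted p = 0.00676). Fasted minus fed differences in the p110α line were −0.37 ± 0.30 in controls and −1.21 ± 0.38 in M-p110αKO. Of 15 other genes of the Arp2/3 complex and its activators, 0 rose in fasted M-p110αKO (3.02% of all genes did) and 2 fell (3.51%). Those that fell were Arpc4 (−0.42 ± 0.12, adjusted p = 0.043) and Actr2 (−0.43 ± 0.12, adjusted p = 0.0448), both subunits of the complex. Neither kept its call with upper-quartile factors, Arpc4 lost it without any of the 7 fasted libraries and Actr2 without any of libraries 9 to 14.

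Mss51 is named after a yeast activator of cytochrome oxidase synthesis and in mammals is found mainly in skeletal muscle mitochondria. It was the most variable of the 9 genes, with a within-group SD of 0.83 in log2 CPM against 0.21 for Dusp26. In fasted mice of the p110α line it was at 35.2, 27.5, 37.1 and 14.6 CPM in controls and 5.95, 17.9 and 3.54 CPM in knockouts, and it fell (−1.62 ± 0.42, adjusted p = 0.0292). The fasted groups overlapped, with knockout library 14 above the lowest control. The call was lost without library 9, 10, 11, 13 or 15 (adjusted p = 0.0535–0.106), with the fasted groups alone (0.0516) and with the GC and length correction (0.0504). Fed controls of this line had 20.6, 27.5, 32.1 and 13.6 CPM and fed M-p110αKO 6.29, 3.83, 3.15 and 5.52 CPM.

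Mss51 was the exception in the p110β line. Fed controls had 23.4, 35.6 and 51.1 CPM and fed M-p110βKO 18.6, 12.0, 19.1 and 14.4 CPM, without overlap (−1.19 ± 0.47, adjusted p = 0.473, 95% CI −2.18 to −0.20). Fasted controls had 41.1, 45.8 and 6.46 CPM and fasted M-p110βKO 4.29, 14.3, 2.11 and 4.57 CPM, and Mss51 fell (−2.27 ± 0.52, adjusted p = 0.0433). Control library 25 lay far below the other fasted controls and within the range of the knockouts. The call was lost without library 23, 24, 26, 28 or 29 (adjusted p = 0.119–0.242) and in DESeq2 (0.0542) and limma-voom (0.156), and without both 23 and 24, the controls high in adipocyte markers, the difference was 0.00 ± 0.65. Library 25 also had the highest sum of slow fiber markers, 311 CPM against 92.6–201 CPM in all others, and whether this bears on its Mss51 level was not tested. The fasted knockout effect on Mss51 differed between the lines by 0.65 ± 0.75 (95% CI −0.88 to 2.17, adjusted p = 0.656), and its direction turned without libraries 23 and 24 (−1.61 ± 0.90, adjusted p = 0.485).

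No fasting response of Mss51 passed in p110β controls (−0.22 ± 0.49, adjusted p = 0.779) or in M-p110βKO (−1.30 ± 0.51, adjusted p = 0.0529). With library 25 as the only fasted control the former was −2.49 ± 0.66 (adjusted p = 0.0153), and without library 27 the latter was −2.15 (adjusted p = 0.00386). In the p110α line the fasted minus fed difference was 0.29 ± 0.35 in controls and 0.98 ± 0.46 in M-p110αKO. Of 18 other genes for cytochrome oxidase assembly and translation, 1 rose in fasted M-p110αKO (3.02% of all genes did) and 0 fell (3.51%). The gene that rose was the copper-handling assembly factor Cox19 (0.71 ± 0.16, adjusted p = 0.0147, lost without library 14). The median of these 18 genes was 0.12, opposite in sign to Mss51.

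Tdrp, named for its part in testis development, fell in fasted M-p110αKO from 8.79, 7.31, 7.71 and 7.69 CPM in controls to 4.59, 4.21 and 2.77 CPM (−1.01 ± 0.22, adjusted p = 0.0115, 0.018–0.044 with each fasted library left out). Fed controls had 8.86, 6.84, 4.87 and 7.29 CPM and fed M-p110αKO 2.64, 3.36, 2.48 and 2.49 CPM. Knockouts were below controls in both states without overlap. In the p110β line Tdrp was at 7.12–7.26 CPM in fed controls and 5.44–8.07 CPM in fed M-p110βKO (−0.11 ± 0.17, 95% CI −0.46 to 0.25), and the fasted groups had 9.62–11.1 and 6.86–9.47 CPM (−0.27 ± 0.16, adjusted p = 0.484, 95% CI −0.60 to 0.06). It rose on fasting in p110β controls (0.52 ± 0.17, adjusted p = 0.0334), a call lost without library 16, 17, 18, 23 or 24, and the rise without 23 and 24 was 0.43 ± 0.26 (adjusted p = 0.275). In M-p110βKO it did not pass (0.36 ± 0.16, adjusted p = 0.0788), except without library 21 (0.0402) or 28 (0.0285). The difference between lines in the fasted knockout effect was −0.75 ± 0.26 (adjusted p = 0.0847). Fasted minus fed differences of Tdrp in the p110α line were 0.15 ± 0.18 in controls and 0.50 ± 0.23 in M-p110αKO.

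Lrp2bp, named as a binding protein of the endocytic receptor LRP2, was in the p110α line at 11.9, 10.0, 5.84 and 10.1 CPM when control mice were fed, against 3.52, 3.73, 4.16 and 3.03 CPM in fed M-p110αKO. In fasted controls it was at 3.00, 3.70, 6.64 and 6.41 CPM and in fasted M-p110αKO at 2.48, 3.68 and 3.69 CPM. Its fasted difference was the smallest of the 9, with overlapping groups and a value of −0.58 ± 0.30 (95% CI −1.22 to 0.06, adjusted p = 0.27). On fasting it fell in controls of the p110β line from 6.88, 13.2 and 10.7 CPM to 3.00, 2.92 and 2.30 CPM (−1.86 ± 0.25, adjusted p = 3.35e-05). In M-p110βKO it fell from 5.65–7.21 to 1.98–3.44 CPM (−1.30 ± 0.23, adjusted p = 0.000276). Knockout and control of that line differed by −0.61 ± 0.21 when fed (adjusted p = 0.394, 95% CI −1.05 to −0.16) and −0.04 ± 0.28 when fasted (95% CI −0.63 to 0.54). In the p110α line the fasted minus fed difference was −0.98 ± 0.25 in controls and −0.14 ± 0.31 in M-p110αKO.

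**Figure D2:**
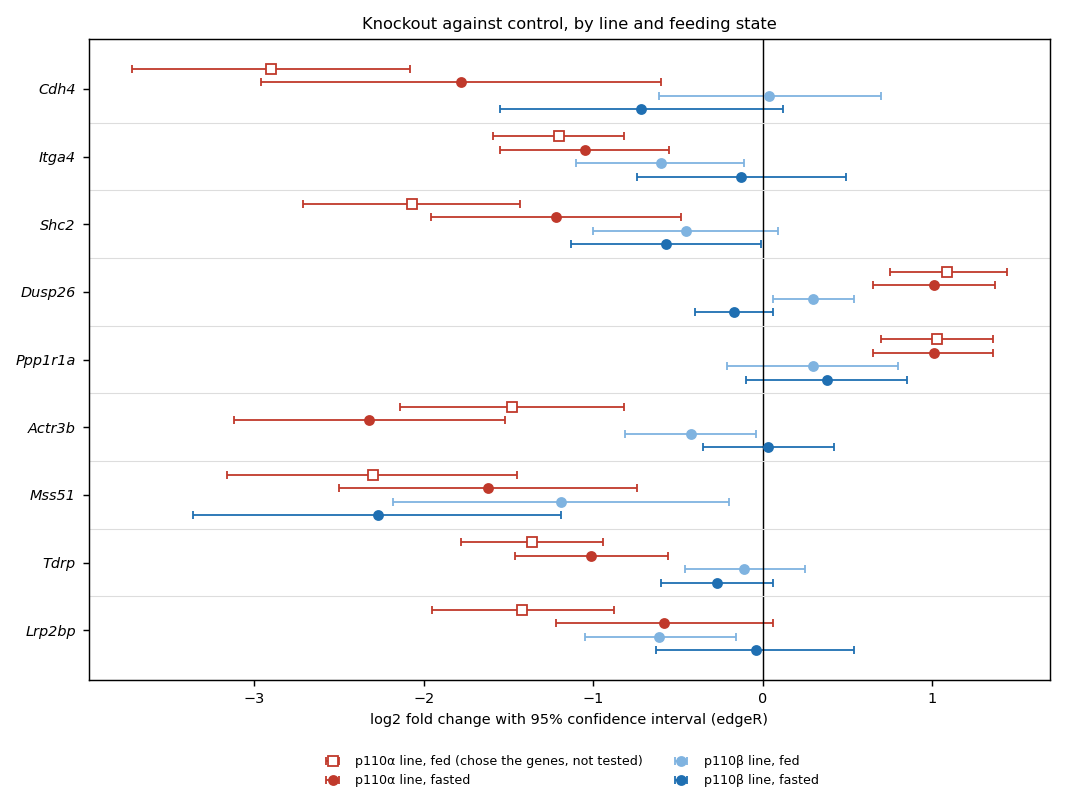
Log2 fold change of knockout against control (horizontal axis, points) with its 95% confidence interval (bars) for each gene (vertical axis) in fed and fasted mice of both lines, open squares marking the fed p110α contrast that chose the genes. The intervals of fasted M-p110αKO lie on the side of the fed value for 8 of the 9 genes and reach 0 for Lrp2bp (−1.22 to 0.06), while those of fasted M-p110βKO include 0 for 7 genes and not for Mss51 (−3.36 to −1.19) and Shc2 (−1.13 to −0.01).

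**Figure D3:**
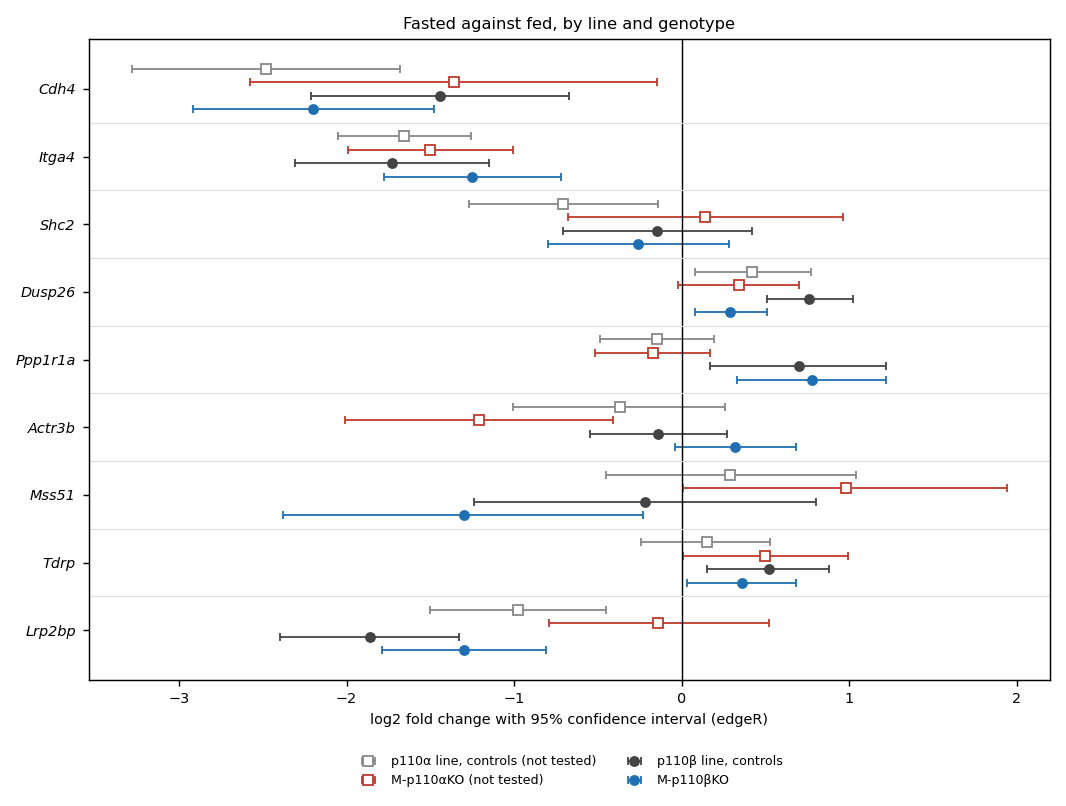
Log2 fold change of fasted against fed mice (horizontal axis, points) with its 95% confidence interval (bars) for each gene (vertical axis) in controls and knockouts of both lines, open squares marking the p110α line, whose fed libraries chose the genes. Cdh4 and Itga4 lie below 0 in all 4 groups, Lrp2bp lies at −1.86 and −1.30 in the p110β line, and Ppp1r1a lies at 0.70 and 0.78 in the p110β line and at −0.15 and −0.17 in the p110α line.

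Markers of other cell types gave no calls in edgeR in the fasted p110α contrast. Of 59 markers tested from lists for 11 cell or fiber types, 0 passed in edgeR (6.52% of all genes did), with 5 at an unadjusted p under 0.05, 1 in DESeq2 and 0 in limma-voom. The median log2 difference of a list ran from −0.65 (adipocyte) to 0.21 (fibroblast), against 0.003 over all genes. A lack of calls with so few libraries does not show that these cells were unchanged. Of the 9 lymphocyte markers on these lists 0 could be tested, so lymphocytes are not covered. Among the 6 muscle fiber markers Des rose (0.39 ± 0.11, adjusted p = 0.042). In fasted M-p110βKO 7 of 55 fell, where 0.596% of all genes did, and 0 rose. Those that fell included 3 adipocyte and 2 fibroblast markers. Fibroblast markers summed to 302–310 CPM in fasted controls of the p110β line and 152–222 CPM in fasted M-p110βKO. The part of these cells in the p110β values of the 9 genes was not tested beyond leaving out libraries 23 and 24.

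The genes most alike each of the 9 over the 15 libraries of the p110α line were found by the Pearson correlation of log2 CPM with 10768 genes. These correlations are descriptions, and the libraries share the group differences that chose the genes. Itga4 followed Col24a1 (r = 0.952) and Slc37a4 (0.939). Actr3b followed Tbc1d19 (0.939), Fgf13 (0.919) and Tab2 (0.904), and Shc2 followed Adgrl1 (0.938), Sdccag8 (0.926) and Kif3c (0.906). For Cdh4 they were Mybph (0.904), Rab40b (0.877) and Mcfd2 (0.875), and for Tdrp they were Creg1 (0.873), Agt (0.854) and Spryd7 (0.823). Lrp2bp followed Klhl23 (0.866), Lysmd4 (0.86) and Krt222 (0.845), and Mss51 followed Dkk3 (0.847), Sorbs2 (0.834) and Zfp652 (0.834). The genes that were higher in knockouts shared a neighbor, Mirg, at 0.834 with Dusp26 and 0.837 with Ppp1r1a. The others were Tmem176b (0.859) and Eef2 (0.842) for Dusp26 and H2-D1 (0.844) and Gpx8 (0.839) for Ppp1r1a.

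Once group means were removed, the 9 genes went together only loosely. Over 36 pairs and 29 libraries, r of the deviations ranged from −0.58 (Itga4 with Ppp1r1a) to 0.53 (Shc2 with Actr3b), with a median of 0.175, and was within 0.3 of 0 for 21 pairs. Itga4 with Mss51 gave 0.50. The libraries share depth and composition, and several of the genes have few counts.

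Genes within 1 Mb of the 9 were also examined in fasted M-p110αKO. Of 167 such genes tested, 12 rose and 6 fell, where 3.02% of all genes rose and 3.51% fell. Their calls are those of the main fit, and no value with a library left out or with the GC and length correction is given for them. Near Lrp2bp, 2 of 16 genes tested fell, Sorbs2 (−1.96 ± 0.22, adjusted p = 0.000123) and Irf2 (−0.67 ± 0.11, adjusted p = 0.00246). Sorbs2, an adaptor of the Z-disc, was thus changed more than Lrp2bp itself. Near Mss51, 2 of 28 fell, Ppp3cb (−0.70 ± 0.11) and Anxa7 (−0.49 ± 0.14). Near Shc2, 8 of 49 rose, with Adamtsl5 (0.70 ± 0.13), Sbno2 (0.82 ± 0.20) and Ndufs7 (0.65 ± 0.16) having the lowest adjusted p, and 0 fell, opposite to Shc2. Near Cdh4, 2 of 18 rose (Lama5 and Osbpl2) and 1 fell (Lsm14b). Upf3a rose near Tdrp, Atp5g2 rose near Ppp1r1a and Xrcc2 fell near Actr3b, while 0 of 4 genes passed near Dusp26 and 0 of 4 near Itga4.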

How the data were processed

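TA muscle mRNA libraries were made with a NEBNext kit. The authors aligned reads to GRCm38 with STAR and counted them per gene with featureCounts of Subread, and they deposited raw counts. For versions, annotation and strand setting, no value was given in the sources used here. Symbols and positions came from GENCODE M21, which names 47310 of 48023 IDs, the rest holding 0.0292% of counts. The 39 library pairs within groups were checked for copies (chi-square per degree of freedom 3.92–30.99).

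Each line was fitted alone in edgeR 4.0.16 (R 4.3.3), and both lines together for contrasts between them: filterByExpr (minimum count 10, total 15), TMM factors, 1 coefficient per group, quasi-likelihood F test, Benjamini-Hochberg adjustment over all genes tested (12433, 12249 and 12760), threshold 0.05. The SE is the absolute log2 fold change divided by the square root of F. CPM values use TMM factors over all 29 libraries, and correlations use log2 CPM with a prior count of 2. The fits were tested on simulated data.

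The 9 genes, the gene lists and the motifs were chosen with earlier results of these data known. Besides the 9 genes, the text names by rule the 3 closest genes to each (mean log2 CPM of at least 1), up to 4 genes of each family list and up to 3 genes within 1 Mb that passed in fasted M-p110αKO, p110 genes and cell type markers. Of these, 1 of the closest genes and the result of 1 family list are not reported here. Each result was recomputed with size factors from DESeq2 or upper-quartile factors in place of TMM, without a filter beyond 1 read, with 1 CPM required in 3 libraries, in DESeq2 1.42.0 and limma-voom (limma 3.58.1), without mitochondrially encoded genes, with offsets from a spline of exon length and GC content (5 degrees of freedom each), on the compared groups alone, on all 29 libraries, with a prior count of 0.5 and without each library in turn. The omission of libraries 23 and 24 together was chosen after seeing the data.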

Additional observations from a re-analysis of the deposited data

Results flagged for a closer look

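The knockout effect in fasted mice differed between the lines for 2 of the 9 genes (4.88% of all genes) by a direct test of the difference in edgeR. Genetic background cannot be told apart from line here. For Dusp26 the effect in the p110α line minus that in the p110β line was 1.17 on the log2 scale (adjusted p = 0.00331). For Actr3b it was −2.36 (adjusted p = 0.00381). Within groups of 4 libraries, 45 sets of values of the 9 genes were checked for a library far from the others, and 0 were flagged. Cdh4 in fasted M-p110βKO, at 2.22, 7.99, 2.11 and 2.68 CPM, was among the sets not flagged. A set that was not flagged can still hold a library that matters. Leaving out library 27, at 7.99 CPM, moved the Cdh4 difference from fasted controls from −0.72 to −1.44. Groups of 3 libraries, which are fasted M-p110αKO and the fed and fasted controls of the p110β line, were not checked.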

How the results depend on the processing

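Over all settings, 1396 of 1562 values of the 9 genes and the named list genes stayed on their side of the threshold, 137 lost a call, 28 gained one and 1 called value lost its direction. Values that were not called changed sign in 30 cases. The called value was Mss51 in fasted M-p110βKO, which was 0.00 without fasted controls 23 and 24 (the cause was not tested). For fasted M-p110αKO, 811 genes were called, 1235 with no filter, 345 with the GC and length correction and 218 to 660 with a library left out, among them 5 to 7 of the 9 genes. For fed M-p110βKO, 0 genes were called, 224 with no filter (1 of the 9 genes), 30 in DESeq2, 2 with the GC and length correction, 12 with the groups alone, 4 with all 29 libraries and 0 to 70 with a library left out. For fasted M-p110βKO, 109 genes were called, 554 with no filter, 173 in DESeq2, 53 in limma-voom, 1 with the groups alone, 29 without 23 and 24 and 25 to 393 with a library left out. Of the 9 genes, 0 were called there in DESeq2, in limma-voom, with the groups alone and without 23 and 24, and 0 to 2 with a library left out. Fasting in p110β controls called 3297 genes, and 2095 without 23 and 24. With a library left out it called 4 to 6 of the 9 genes and 2452 to 2829 of all genes. Fasting in M-p110βKO then called 4 to 6 of the 9 genes and 3851 to 4551 of all genes. The line difference in the fasted knockout effect called 623 genes, 219 with the GC and length correction, 390 with the groups alone, 34 without 23 and 24 (0 of the 9) and 178 to 956 with a library left out. The comparison of fasted controls called 3863 genes, 2404 with the GC and length correction (0 of the 9) and 825 without 23 and 24 (0 of the 9). It called 5 of the 9 with no filter and 1 to 4 with a library left out (2691 to 3520 of all genes). Shc2, Lrp2bp and Tdrp, with 4 to 115 counts per library, had the least depth. No paired analysis was possible because each library has a number of its own from 1 to 29 and no groups share one.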
